A study of Mus musculus with 3 samples.

Results

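Cell cycle and proliferation genes were followed through 3 heart sections by means of 40 listed genes. They comprise 11 genes of DNA replication (S phase), 21 genes of G2 and mitosis, 5 G1 cyclins and 3 genes that dividing cells express strongly but other cells also use (Stmn1, Hmgb2 and H2afz). To be described, a gene had to hold at least 10 UMIs (unique molecular identifiers, each standing for 1 captured transcript) over all sections, which all 40 did, out of 32285 genes in the files and 14858 with that many UMIs. The question of the experiment was what the Shexiang Baoxin Pill (SBP, sold as MUSKARDIA) does to the mouse heart in ischemia and reperfusion (I/R).

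All mice were C57BL/6 animals aged 8 weeks, and each condition is represented by 1 section of a piece of 1 heart. The sham mouse was gavaged with vehicle for 7 days, and at surgery the needle was passed without ligation. The I/R mouse had 7 days of vehicle, followed by ligation of the left anterior descending coronary artery for 30 min and 24 h of reperfusion. The SBP mouse was gavaged with SBP for 7 days before the same ligation and reperfusion. Transcripts were captured on barcoded Visium spots, each of which can hold several cells. Without a second section of any condition, the spread between mice is unknown.

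Filtering kept 1960 to 2234 spots per section, with 21631280 to 30238530 UMIs and a median of 10645 to 14672 UMIs per spot. Levels are UMIs per 1000000 UMIs of a section or of a group of spots (CPM). Unless a section is named, 3 values in a row are those of sham, I/R and SBP, in this order. The 95% interval in parentheses covers counting error only. The cardiomyocyte markers (Myh6, Tnnt2, Actc1, Ttn, Ryr2 and Pln) were abundant in each section, at 20241, 15946 and 17469.7 CPM. The 7 injury genes Ccn2, Tgfbi, Timp1, Lgals3, Tnc, Spp1 and Postn summed to 306, 1376 and 566 CPM. The sham section, although not ligated, also held spots rich in them: in the 10% of its spots highest in this list it reached 1878 CPM, against 108 in its remaining spots. Apart from expression levels such as these sums, nothing in these files checks the label of this section, and each value set against sham rests on it. The main sums, counts and ratios are given with and without the injury-rich spots of every section, the 10% highest within that section. In I/R these spots reached 8343 CPM of the injury genes against 885 in the rest, and in SBP 3827 against 306. The spots left after this cut are therefore not alike in injury genes between sections. As many as 1093 spot barcodes occurred in all sections, where they mark a place on the slide and not a cell.

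A cell that enters the cycle first raises D-type and E-type cyclins in G1, which activate cyclin-dependent kinases. These kinases release E2F transcription factors, which switch on the genes that copy DNA in S phase. The genes of G2 and mitosis follow later, controlled by DREAM, B-MYB and FOXM1 complexes through CHR and CCAAT elements of their promoters. Adult cardiomyocytes rarely divide, and the dividing cells of an injured heart are mostly leukocytes, fibroblasts and endothelial cells.

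Promoters of the most abundant S phase and mitosis members with a RefSeq entry are shown because these elements are what the textbook division into an early and a late wave rests on. They are RefSeq sequences on GRCm38.p6, from 250 bases before the start of the gene to 50 after it, along the strand of the gene. Capitals mark matches on either strand to 3 motifs. The first is the CHR element, with the letters TTTGAA. The second is the CCAAT box. The third is the E2F motif, written TTTCGCGC or alternatively TTTGGCGC. Pcna (ENSMUSG00000027342), the sliding clamp of DNA polymerase, has its window at chr2:132253131-132253430 on the minus strand. That of Mcm6 (ENSMUSG00000026355), a subunit of the replicative helicase, is chr1:128359656-128359955 on the minus strand. Mki67 (ENSMUSG00000031004), which encodes the proliferation antigen Ki-67, has chr7:135716330-135716629 on the minus strand. Birc5 (ENSMUSG00000017716), which encodes survivin of the chromosomal passenger complex, has chr11:117848987-117849286 on the plus strand.
Pcna: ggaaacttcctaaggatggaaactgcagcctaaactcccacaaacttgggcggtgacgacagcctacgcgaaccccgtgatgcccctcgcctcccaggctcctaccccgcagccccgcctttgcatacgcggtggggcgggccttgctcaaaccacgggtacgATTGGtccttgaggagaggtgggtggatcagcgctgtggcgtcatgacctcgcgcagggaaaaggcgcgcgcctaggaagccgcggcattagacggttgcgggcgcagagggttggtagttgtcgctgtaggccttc
Mcm6: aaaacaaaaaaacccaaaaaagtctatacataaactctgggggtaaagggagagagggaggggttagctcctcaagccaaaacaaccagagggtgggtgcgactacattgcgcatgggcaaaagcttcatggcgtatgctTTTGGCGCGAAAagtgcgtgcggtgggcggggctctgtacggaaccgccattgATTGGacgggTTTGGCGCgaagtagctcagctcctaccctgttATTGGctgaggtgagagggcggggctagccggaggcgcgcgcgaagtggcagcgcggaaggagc
Mki67: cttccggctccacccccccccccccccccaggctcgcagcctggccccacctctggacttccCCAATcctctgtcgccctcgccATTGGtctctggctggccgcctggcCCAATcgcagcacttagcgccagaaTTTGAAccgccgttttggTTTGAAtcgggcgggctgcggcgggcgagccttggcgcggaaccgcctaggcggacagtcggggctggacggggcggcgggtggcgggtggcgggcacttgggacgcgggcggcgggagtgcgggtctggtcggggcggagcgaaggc
Birc5: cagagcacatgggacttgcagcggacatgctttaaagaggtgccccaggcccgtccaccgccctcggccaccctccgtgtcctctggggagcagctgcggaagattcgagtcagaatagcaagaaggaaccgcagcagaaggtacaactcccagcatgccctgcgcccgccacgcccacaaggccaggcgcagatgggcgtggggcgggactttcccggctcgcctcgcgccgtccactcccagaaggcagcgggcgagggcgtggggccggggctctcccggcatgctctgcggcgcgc
The Mcm6 window holds 3 E2F matches, of which 1 pair overlaps on opposite strands, and 2 CCAAT matches. In the Mki67 window 2 CHR and 3 CCAAT matches were found, and in the Pcna window 1 CCAAT match. Birc5 holds none of the motifs, which says only that these letters are not in this window.

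A RefSeq promoter was found for 32 of the 40 members. CHR was present in 12 of 18 promoters of G2 and mitosis members and in 1 of 10 of S phase members, against 20.2% of the 27025 genes with a promoter. The E2F motif was present in 4 of 10 S phase promoters (Mcm3, Mcm5, Mcm6 and Mcm7) and in 1 of 18 mitosis promoters (Cdk1), against 0.929% of all genes. CCAAT was present in 16 of 18 mitosis promoters, 8 of 10 S phase promoters and 41.1% of all. A match is a run of letters and was not tested as a binding site.

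S phase genes and genes of mitosis differed in their order over the sections. S phase genes were high in I/R and near the sham level in SBP, whereas mitosis genes were high in I/R and far below the sham level in SBP. The 11 S phase members summed to 88.9 (85.2 to 92.6), 218 (212 to 223) and 94.2 (90.1 to 98.3) CPM. The 21 members of G2 and mitosis summed to 51.3 (48.5 to 54.2), 90.7 (87.3 to 94.2) and 14.3 (12.7 to 16.0) CPM, from 1288, 2743 and 309 UMIs. The 5 G1 cyclins differed far less, at 156, 167 and 148 CPM. In spots, fewer cells of a type and less RNA per cell cannot be told apart.

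On the log2 scale, I/R over sham was 1.29 (1.22 to 1.36) for S phase and 0.82 (0.73 to 0.92) for mitosis. SBP over I/R was -1.21 (-1.28 to -1.14) for S phase and -2.67 (-2.84 to -2.5) for mitosis. Against sham, SBP stood at 0.08 (-0.0036 to 0.17) for S phase, an interval that includes 0, and at -1.84 (-2.03 to -1.66) for mitosis, which is 0.279 times the sham level. Without the 10% of spots highest in injury genes, the mitosis ratio of I/R over sham was 1.4 (1.27 to 1.53) and that of SBP over sham was -1.28 (-1.5 to -1.07). This cut took away 49.4% of the mitosis UMIs of sham, 20.7% of those of I/R and 22.0% of those of SBP, which by itself raises both ratios. A difference between treatments and one between single mice or sections cannot be told apart here.

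**Figure D1:**
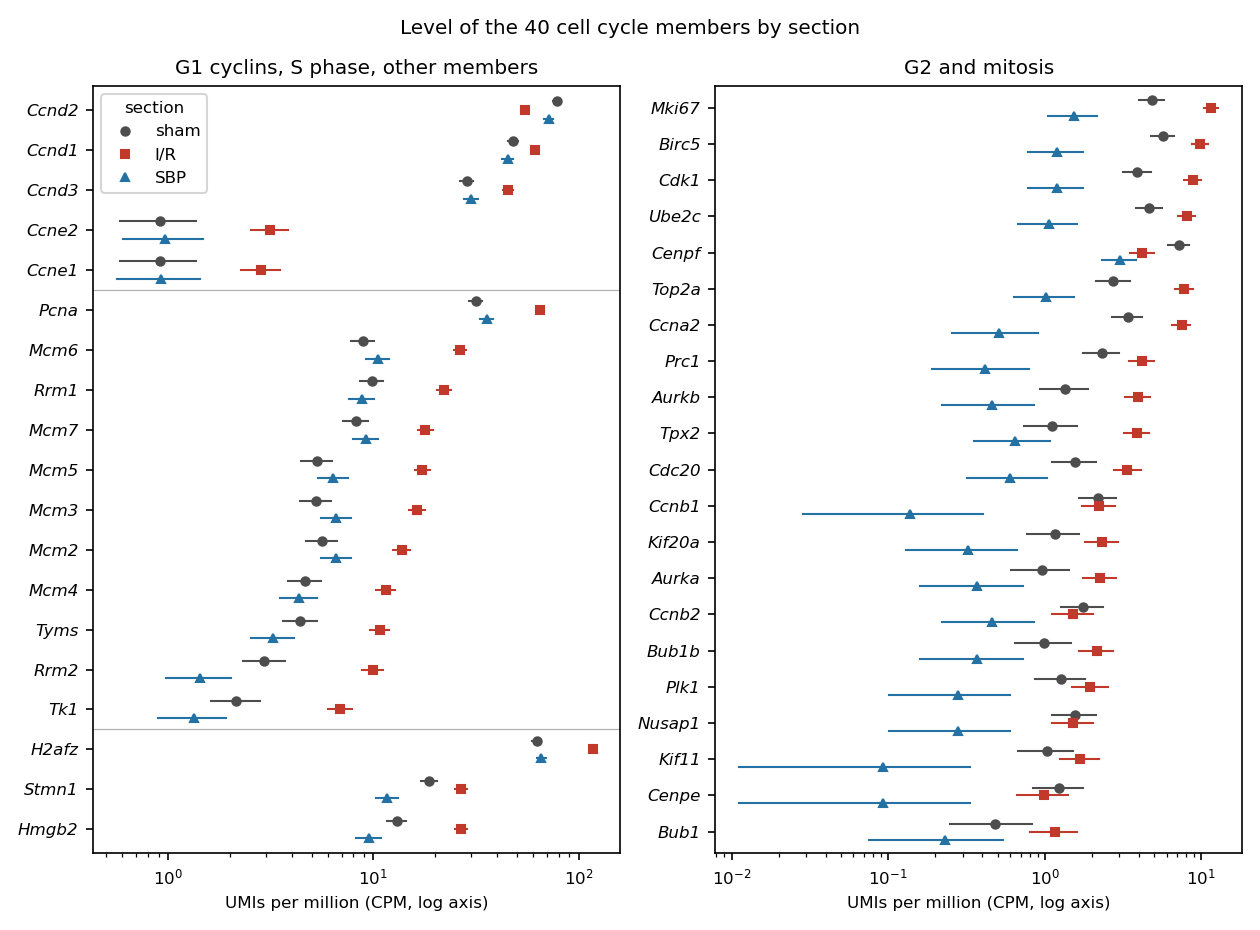
Level of each member in each section, in CPM on a log axis, with points for the sections and lines for exact 95% Poisson intervals. Most S phase members lie close together in sham and SBP and higher in I/R, with Rrm2 and Tk1 lower in SBP than in sham, while the G2 and mitosis members have their lowest point in SBP.

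Members were counted when they held at least 50 UMIs in the pair of sections compared and differed at least 1.5-fold, with no test, and the same count over all genes gives the background. I/R was higher than sham for 31 of 39 members, where 23.2% of all genes were. These were all 11 S phase members, 15 of 20 mitosis members, 3 of 5 G1 cyclins and 2 of the other 3. With median-of-ratios size factors, which move every ratio of this pair down, the count was 26 of 39, and Birc5, Ube2c, Plk1, Kif11 and Ccnd3 were no longer past 1.5-fold. The share over all genes was not counted with these factors, which lower it too, so the 23.2% is not its background. By CPM, I/R was lower than sham for 1 member, Cenpf, where 3.49% of all genes were. The median log2 ratio was 1.12 over the members and 0.24 over all genes.

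SBP was lower than I/R for 35 of 38 members, where 13.8% of all genes were, and higher for 0 of 38, where 1.95% were. The median was -2.05 over the members and -0.17 over all genes. SBP was lower than sham for 14 of 28 members, where 2.77% of all genes were, and higher for 0 of 28, where 5.31% were. The 14 were all 11 mitosis members that could be counted, with Rrm2, Tk1 and Stmn1. These 11 passed the minimum mostly by their sham UMIs, as with Ccnb1, which held 55 in sham and 3 in SBP. Mitosis members low in both sections were left out, so that all 11 lay below sham follows in part from the minimum. In the pair of SBP and I/R, most mitosis UMIs were likewise those of I/R. Without the injury-rich spots only 22 members, 5 of them of mitosis, could be counted, and SBP was lower than sham for 6 (Mki67, Cdk1, Birc5, Cenpf, Ube2c and Rrm2), where 2.38% of all genes were. For I/R over sham the count without those spots was 34 of 38, and for SBP below I/R it was 32 of 35, where 21.9% and 12.3% of all genes were. With all spots kept, the median log2 ratio of SBP over sham was -0.57 over the 28 members and 0.08 over all genes.

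**Figure D2:**
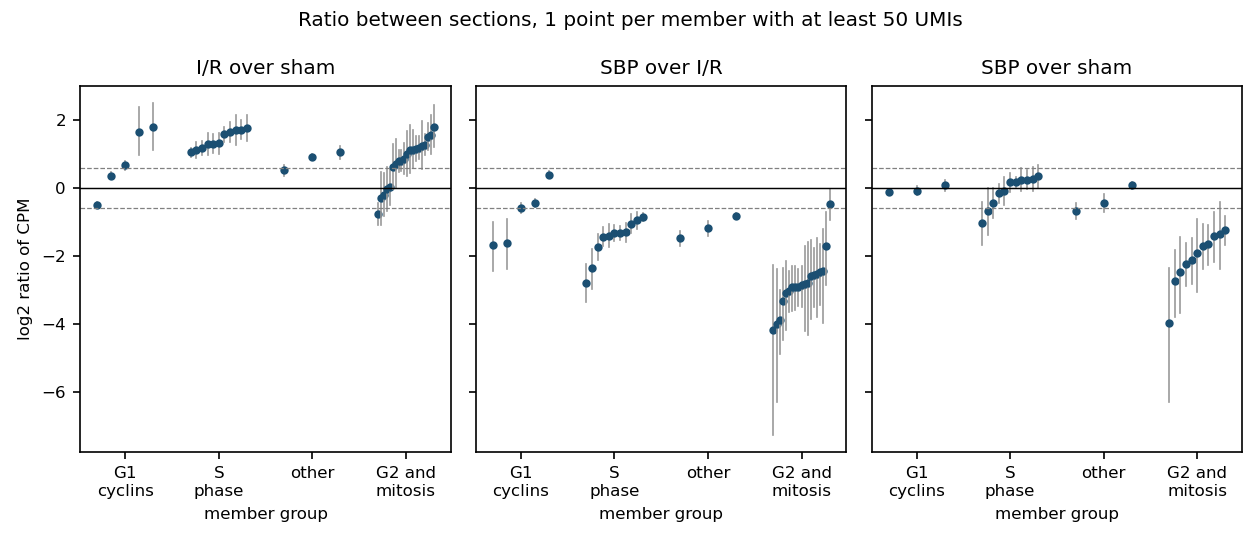
Log2 ratio of CPM between sections for each member with at least 50 UMIs in the pair, with its 95% counting interval and dashed lines at 1.5-fold. In the panel of SBP over sham, the 11 mitosis members with enough UMIs, mostly those of sham, lie below the lower dashed line. S phase members lie on both sides of 0.

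The G1 cyclins, which bind the kinases that start the cycle, went different ways. Ccnd2 was at 78.1 (74.7 to 81.6), 54.8 (52.2 to 57.5) and 71.5 (68.0 to 75.1) CPM, lowest in I/R. Ccnd1 was at 47.8, 61.3 and 45.1 CPM and Ccnd3 at 28.5, 45.2 and 29.9 CPM, both highest in I/R. The log2 ratio of I/R over sham was -0.51 (-0.61 to -0.42) for Ccnd2, 0.36 (0.25 to 0.47) for Ccnd1 and 0.66 (0.53 to 0.80) for Ccnd3, and of these only Ccnd3 was past 1.5-fold, though at 0.45 it was not with median-of-ratios size factors.

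The E cyclins, which act at the entry into S phase, were rare. Ccne1 was at 0.916, 2.84 and 0.925 CPM (23, 86 and 20 UMIs) and Ccne2 at 0.916, 3.14 and 0.971 CPM (23, 95 and 21 UMIs). Both were higher in I/R than in sham, with log2 ratios of 1.64 (0.96 to 2.37) and 1.78 (1.11 to 2.5), and their SBP levels lay inside the sham intervals. The summed G1 cyclins gave I/R over sham a ratio of 0.10 (0.04 to 0.16), whose sign changed with the scaling, to -0.017 without mitochondrial UMIs and to -0.12 with median-of-ratios size factors.

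Among S phase members, those of the replication machinery had sham and SBP close together. Pcna was at 31.6 (29.4 to 33.8), 64.8 (62.0 to 67.8) and 35.7 (33.3 to 38.3) CPM. The helicase subunits followed it, with Mcm6 at 8.88, 26.4 and 10.5 CPM, Mcm7 at 8.24, 17.9 and 9.2, Mcm5 at 5.29, 17.3 and 6.38 and Mcm3 at 5.26, 16.3 and 6.61. Their log2 ratios of SBP over sham were 0.16 to 0.33, with intervals that include 0, as did those of Mcm2, Mcm4 and Rrm1. Pcna was the 1 S phase member with an interval above 0, at 0.18 (0.03 to 0.32). Median-of-ratios size factors move every ratio of this pair by -0.082, which brings that interval across 0.

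Of the 4 genes that supply nucleotides, 3 had an interval of SBP over sham below 0 with all spots kept, and these are named after their values were seen. The share of all genes with such an interval was not counted, so this count has no background. Rrm2, the regulated subunit of ribonucleotide reductase, was at 2.95 (2.31 to 3.7), 9.92 (8.83 to 11.1) and 1.43 (0.974 to 2.03) CPM. Its log2 ratio of SBP over sham was -1.04 (-1.69 to -0.42), past 1.5-fold. Tk1, thymidine kinase, gave -0.68 (-1.39 to -0.0045), also past 1.5-fold, and Tyms, thymidylate synthase, gave -0.45 (-0.90 to -0.0051), which was not. Rrm1, the other subunit of the reductase, was at 9.83, 22.1 and 8.78 CPM with a ratio of -0.16 (-0.44 to 0.12). Without the injury-rich spots, Rrm2 stood at 1.79 (1.28 to 2.44) CPM in sham and 1.15 (0.728 to 1.72) in SBP, from 40 and 23 UMIs. Tk1 then stood at 1.57 (1.09 to 2.18) and 1.25 (0.807 to 1.84) CPM and Tyms at 3.5 (2.76 to 4.36) and 2.45 (1.81 to 3.23). Only Rrm2 was past 1.5-fold after this cut.

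The members of G2 and mitosis were lowest in SBP. Mki67 was at 4.82 (4.0 to 5.76), 11.5 (10.3 to 12.8) and 1.53 (1.05 to 2.14) CPM, from 121, 348 and 33 UMIs. Cdk1, the kinase that drives entry into mitosis, was at 3.9, 8.8 and 1.2 CPM, and Ccna2, a cyclin of S phase and G2, at 3.38, 7.47 and 0.509. Top2a, the topoisomerase that untangles replicated chromosomes, was at 2.75, 7.74 and 1.02 CPM. For these 4 genes the log2 ratio of I/R over sham was 1.14 to 1.49 and that of SBP over sham -2.73 to -1.43.

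Birc5 was at 5.65 (4.76 to 6.66), 9.82 (8.74 to 11.0) and 1.2 (0.785 to 1.76) CPM. Ube2c, the conjugating enzyme that works with the anaphase-promoting complex, was at 4.66, 8.07 and 1.06 CPM. Their log2 ratios of I/R over sham were 0.80 (0.50 to 1.1) and 0.79 (0.47 to 1.12). Prc1, which bundles the microtubules of the central spindle, was at 2.31, 4.17 and 0.416 CPM, from 58, 126 and 9 UMIs. Ube2c overlaps Tnnc2 on the other strand, and whether reads were assigned by strand is not given.

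With all spots kept, not every mitosis member differed between I/R and sham beyond counting error. Of 20 with at least 50 UMIs, 13 had an interval above 0, 1 below 0 and 6 across it. The 6, named for this reason, were the B cyclins Ccnb1 and Ccnb2, the kinase Plk1, the motor proteins Kif11 and Cenpe and the spindle protein Nusap1. The share of all genes with an interval above or below 0 was not counted, so these counts have no background. The median log2 ratio over all genes was 0.24. Ccnb1 held 55, 67 and 3 UMIs, with a log2 ratio of I/R over sham of 0.02 (-0.52 to 0.56). Ccnb2 gave -0.20 (-0.83 to 0.43) and Nusap1 -0.03 (-0.68 to 0.62). Without the injury-rich spots, Ccnb1, Ccnb2, Plk1 and Kif11 were at least 1.5-fold higher in I/R, where 21.9% of all genes were. Nusap1 was not, and Cenpe had too few UMIs to be counted. Ccnb1 then stood at 0.896 CPM in sham and 1.98 in I/R. This cut took away 63.6% of the Ccnb1 UMIs of sham and 16.4% of those of I/R, which by itself raises its ratio. In SBP the 6 were low like the rest, and Ccnb1 gave a ratio over sham of -3.98 (-6.3 to -2.36). The remaining members (Aurka, Aurkb, Bub1, Bub1b, Cdc20, Kif20a and Tpx2) held 12 to 39 UMIs in sham, 35 to 119 in I/R and 5 to 14 in SBP.

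Cenpf (ENSMUSG00000026605), a large kinetochore protein, went against its group. It was at 7.17 (6.16 to 8.29), 4.2 (3.5 to 5.0) and 3.0 (2.32 to 3.83) CPM, highest in sham. Its spots also differed. Of the sham spots with a Cenpf UMI, 20.3% held another mitosis member, against 19.4% of all sham spots, while for Mki67 these shares were 69.8% and 23.7%. In I/R they were 45.8% and 42.7% for Cenpf and 76.2% and 42.8% for Mki67. Without Cenpf the mitosis sum gave I/R over sham a log2 ratio of 0.97 and SBP over I/R -2.94.

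The 3 members that are also used outside the cycle were highest in I/R as well. H2afz, a histone variant, was at 62.6 (59.5 to 65.8), 117 (114 to 121) and 65.9 (62.5 to 69.4) CPM. Hmgb2, a chromatin protein, was at 13.0, 26.8 and 9.52 CPM, and Stmn1, which destabilizes microtubules, at 18.7, 26.7 and 11.6. With all spots kept, SBP over sham was 0.07 (-0.03 to 0.18) for H2afz, -0.45 (-0.71 to -0.19) for Hmgb2 and -0.68 (-0.91 to -0.46) for Stmn1. SBP was thus below sham for the last pair, and past 1.5-fold for Stmn1. Without the injury-rich spots, Hmgb2 stood at 8.38 (7.22 to 9.67) CPM in sham and 8.08 (6.89 to 9.43) in SBP. Stmn1 then stood at 15.4 (13.8 to 17.1) and 11.1 (9.72 to 12.7) CPM, no longer past 1.5-fold. This cut took away 42.6% of the Hmgb2 UMIs of sham and 21.4% of those of SBP.

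The balance of late and early genes needs no scaling when it is taken as UMIs of mitosis members per UMI of S phase members. It was 0.577 (0.538 to 0.618), 0.417 (0.398 to 0.436) and 0.152 (0.134 to 0.171), and the intervals do not overlap. In the 10% of spots highest in injury genes the ratio was 0.989 (0.885 to 1.11), 0.387 (0.351 to 0.427) and 0.132 (0.101 to 0.17). In the remaining spots it was 0.41 (0.374 to 0.45), 0.425 (0.404 to 0.447) and 0.159 (0.138 to 0.182), where sham and I/R overlap. Split by Ankrd1, as defined further on, it was 0.982 (0.842 to 1.15), 0.449 (0.419 to 0.482) and 0.149 (0.116 to 0.188) in Ankrd1-high spots and 0.504 (0.466 to 0.545), 0.396 (0.374 to 0.42) and 0.153 (0.132 to 0.176) in the others, with sham above I/R in both. SBP was lowest in each of these 4 kinds of spots. With the injury-rich spots left out, sham was no longer above I/R in spots that were not Ankrd1-high. These held 541 mitosis and 1458 S phase UMIs in sham and 1092 and 2808 in I/R. In the Ankrd1-high spots left after this cut, sham was still above I/R. There sham held 111 mitosis and 131 S phase UMIs, and I/R 1083 and 2307.

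To compare shares at 1 depth, each spot was thinned to 6500 UMIs, which left 2102, 1880 and 1747 spots. A UMI of any of the 40 members was seen in 86.0, 87.6 and 80.8% of them. An S phase member was seen in 37.3 (35.3 to 39.5), 54.3 (52.0 to 56.6) and 35.4 (33.1 to 37.7)% of spots, and without thinning in 50.9, 75.0 and 52.0%. A mitosis member was seen in 18.1 (16.5 to 19.8), 29.4 (27.3 to 31.5) and 7.5 (6.31 to 8.83)% of spots, and without thinning in 25.0, 45.8 and 12.2%. For G1 cyclins the thinned shares were 61.0, 57.9 and 57.0%. Free transcripts can reach spots whose cells do not express a gene, and these are shares of spots with a UMI. The share in spots that lack dividing cells was not measured.

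Spots with several different mitosis members were rare in SBP. At least 2 were found in 99, 230 and 12 spots (4.71, 12.2 and 0.687%), and at least 3 in 46, 99 and 1 spots. At least 5 were found in 16 sham and 18 I/R spots and in 0 of 1747 in SBP, which allows a share of up to 0.172% by 3 counts of the total and 0.211% by the exact binomial interval. The most in a spot was 9, 10 and 4. Without thinning, the 5% of spots with the most mitosis UMIs held 56.8, 38.0 and 54.4% of them. These shares are not compared between sections, since SBP held only 309 such UMIs, found in 12.2% of its spots.

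S phase UMIs were more frequent where mitosis UMIs were. Of thinned spots with a mitosis UMI, 53.4 (48.3 to 58.5), 78.3 (74.6 to 81.6) and 55.7 (46.8 to 64.4)% also held an S phase UMI. Of those without one, 33.8 (31.6 to 36.1), 44.4 (41.7 to 47.1) and 33.7 (31.4 to 36.1)% did.

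**Figure D3:**
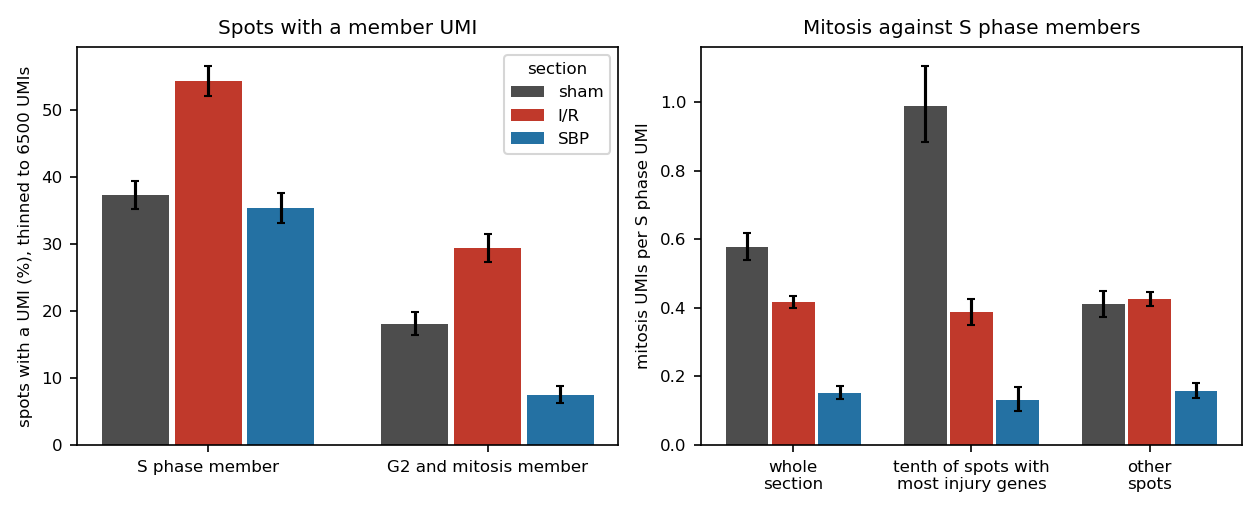
Left, percent of spots thinned to 6500 UMIs that hold a UMI of an S phase member or of a G2 and mitosis member, with exact binomial 95% intervals. Right, UMIs of mitosis members per UMI of S phase members in the whole section, in the 10% of spots with the most injury genes and in the other spots, where the sham value goes from 0.989 to 0.410.

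Ankrd1, a stress-responsive protein of heart muscle that the study used to tell infarct from other tissue, sets the next comparison. A spot was called Ankrd1-high when it held more Ankrd1 UMIs per 10000 UMIs than 95% of sham spots (above 27.0). This took 112, 479 and 326 spots, or 5.01, 23.0 and 16.6%, of which the sham share is fixed by the threshold. Ankrd1-high spots were deeper, with a median of 14927, 17348 and 11989.5 UMIs against 10501.5, 14103 and 10453 in the other spots. Mitochondrial UMIs made up 45.2, 40.6 and 43.9% of theirs, against 48.9, 45.7 and 46.9% in the other spots. The part of depth in the levels below was not tested.

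S phase members were higher in Ankrd1-high spots of every section. They stood at 184 (165 to 205) against 81.3 (77.7 to 85.0) CPM in the other spots of sham, at 309.9 (298 to 322) against 184 (178 to 189) for I/R and at 141 (129 to 153) against 83.8 (79.6 to 88.2) for SBP. The log2 ratios were 1.18 (1.01 to 1.35), 0.76 (0.68 to 0.83) and 0.75 (0.60 to 0.89).

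Mitosis members stood at 181 (162 to 202) against 41.0 (38.4 to 43.7) CPM in the other spots of sham, at 139 (131 to 148) against 72.7 (69.2 to 76.4) for I/R and at 20.9 (16.6 to 26.0) against 12.8 (11.2 to 14.6) for SBP. Here the log2 ratios were 2.14 (1.96 to 2.32), 0.94 (0.83 to 1.05) and 0.71 (0.32 to 1.08). G1 cyclins were nearly even, with ratios of 0.10 (-0.08 to 0.27), 0.22 (0.13 to 0.31) and 0.20 (0.08 to 0.33).

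Inside Ankrd1-high spots, with all spots kept, the mitosis sum of sham was above that of I/R. For mitosis members, I/R over sham was -0.38 (-0.56 to -0.20) in Ankrd1-high spots and 0.83 (0.71 to 0.94) elsewhere. With the injury-rich spots left out, which kept 55 Ankrd1-high spots of sham and 450 of I/R, the first of these was 0.16 (-0.13 to 0.45), across 0, and the second 1.09 (0.94 to 1.24). In Ankrd1-high spots this cut left 111 of 334 mitosis UMIs of sham and 1083 of 1138 of I/R, which by itself raises the first ratio. For S phase members, with all spots kept, I/R over sham was 0.75 (0.59 to 0.92) and 1.18 (1.1 to 1.25). SBP over I/R was below 0 in both kinds of spots, at -2.73 (-3.08 to -2.41) and -2.5 (-2.71 to -2.3) for mitosis.

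**Figure D4:**
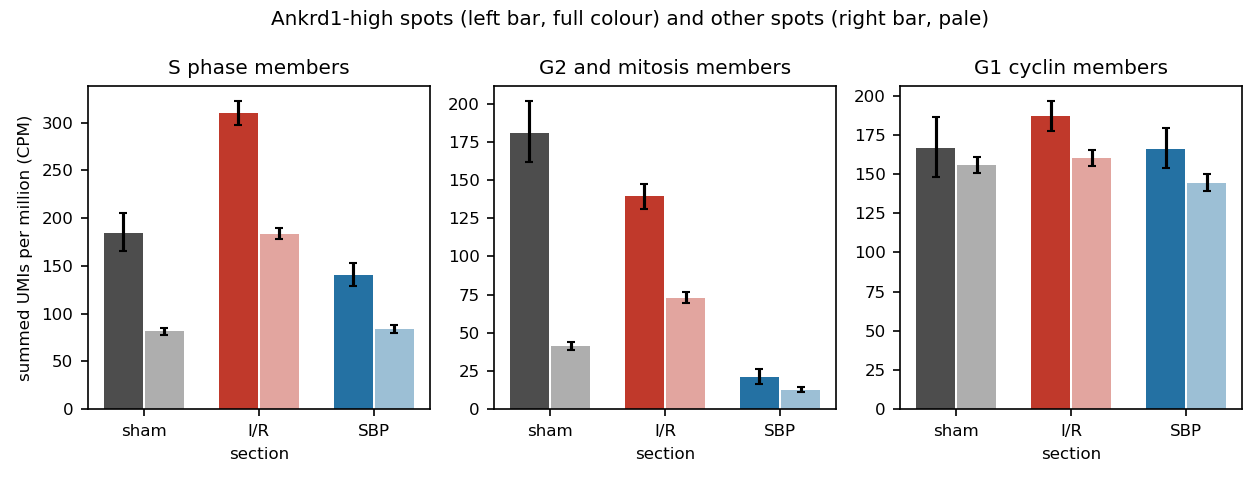
Summed level in CPM of S phase, G2 and mitosis and G1 cyclin members in Ankrd1-high spots and other spots of each section, with exact 95% Poisson intervals. In the mitosis panel the Ankrd1-high value of sham, at 181 CPM, is above that of I/R, at 139 CPM.

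Counted one by one, 22 of 26 members were at least 1.5-fold higher in Ankrd1-high spots of sham, where 28.3% of all genes were, and 1 was lower, where 6.08% were. For I/R, 29 of 36 were higher, where 13.6% were, and 1 was lower, where 3.88% were. For SBP, 8 of 16 were higher, where 16.6% were, and 1 was lower, where 5.02% were. The 8 were S phase members, and the count of SBP could hold only 1 mitosis member, Cenpf, since the others had too few UMIs. The lower member was Cenpf each time, with 7, 25 and 2 UMIs in Ankrd1-high spots and 173, 102 and 63 in the others. The median log2 ratio was 1.4, 0.87 and 0.52 over the members and 0.31, 0.24 and 0.21 over all genes.

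Single members rested on fewer UMIs. Mki67 stood at 17.9 (12.3 to 25.1), 17.6 (14.9 to 20.7) and 2.81 (1.4 to 5.02) CPM in Ankrd1-high spots and at 3.78, 9.24 and 1.24 in the others. Pcna stood at 54.7, 87.1 and 49.2 CPM and 29.7, 56.6 and 32.7. The share of thinned spots with a mitosis UMI was 50.5, 47.9 and 12.5% in Ankrd1-high spots and 16.3, 23.6 and 6.48% in the others.

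The injury genes gave larger differences between spots than Ankrd1. In the 10% of spots highest in them, mitosis members stood at 227 (209.7 to 245), 285 (262 to 309.7) and 42.7 (33.2 to 54.1) CPM, against 29.2, 77.0 and 12.0 in the remaining spots. These spots held 49.4, 20.7 and 22.0% of all mitosis UMIs, from 11.2, 6.58 and 7.36% of all UMIs. S phase members stood there at 229.5 (212 to 248), 737 (700.1 to 776) and 325 (297 to 354) CPM, against 71.2, 181 and 75.9.

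The injury-rich spots of sham were close to those of I/R for some late genes. They stood below those of I/R for other late genes and for early ones, and above for a few late genes such as Ccnb1. Birc5 stood at 32.1, 41.2 and 6.28 CPM in these spots, Ube2c at 23.9, 25.6 and 1.88 and Prc1 at 13.9, 11.6 and 1.88. Mki67 stood at 22.8 (17.6 to 29.2) CPM for sham and 42.7 (34.1 to 52.8) for I/R. Top2a stood at 14.3 and 23.6, Ccna2 at 15.4 and 25.1 and Cdk1 at 18.2 and 25.1 CPM for sham and I/R. Ccnb1, chosen after its values were seen, stood at 12.5 (8.7 to 17.4) CPM for sham and 5.53 (2.76 to 9.89) for I/R. Mcm5 was in the opposite order, at 16.1 (11.7 to 21.5) and 68.3 (57.3 to 80.8) CPM. Ccnd1 stood at 65.0, 196 and 111 CPM against 45.7, 51.8 and 39.8 in the remaining spots. Cenpf was nearly even, at 7.5, 4.52 and 2.51 against 7.12, 4.18 and 3.04 CPM.

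Mitosis members were higher in spots rich in leukocyte markers and lower in spots rich in cardiomyocyte markers. Markers of infiltrating monocytes (Ly6c2, Ccr2, Plac8, Spp1, Arg1 and Chil3) summed to 131, 614 and 216 CPM, and those of neutrophils (S100a8, S100a9, Retnlg, Csf3r, Cxcr2 and Il1r2) to 29.4, 249 and 122. In the 10% of spots highest in the monocyte list, the log2 ratio of mitosis members over the remaining spots was 2.9 (2.74 to 3.06), 1.69 (1.55 to 1.83) and 1.45 (1.0 to 1.87). For the neutrophil list it was 2.29, 2.02 and 1.52, for the macrophage list 1.96, 1.48 and 1.23 and for the fibroblast list 1.8, 1.15 and 0.88. Spp1, at 107, 456 and 147 CPM, made up most of the monocyte list and is also in the injury list. Chil3 is in both the monocyte and the marrow list.

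Endothelial-rich spots differed between the sections. There the mitosis ratio was 0.36 (0.10 to 0.60), 1.57 (1.43 to 1.72) and 0.50 (-0.06 to 1.01) and the S phase ratio 0.21, 1.63 and 0.73. Endothelial markers themselves stood at 354, 680 and 438 CPM in injury-rich spots, against 290, 318 and 281 in the rest. The endothelial-rich spots of I/R had a median of 8515 UMIs, against 14672 for its section. The part of injury or depth in these ratios was not tested. In cardiomyocyte-rich spots the mitosis ratio was -1.2 (-1.61 to -0.81), -2.18 (-2.57 to -1.8) and -0.69 (-1.49 to 0.0092). Smooth muscle and pericyte markers gave -0.19, 0.57 and 0.48 and erythroid markers -0.61, -0.37 and 0.23. T cell markers summed to 1.04, 2.08 and 1.62 CPM and B cell markers to 1.83, 2.48 and 1.8, too few to rank spots. Of the marrow markers Camp, Ngp, Ltf, Elane, Mpo and Chil3, 3 of 6 were at 0 UMIs in each section, and Chil3 made up nearly all of their sum of 5.97, 49.1 and 25.1 CPM.

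**Figure D5:**
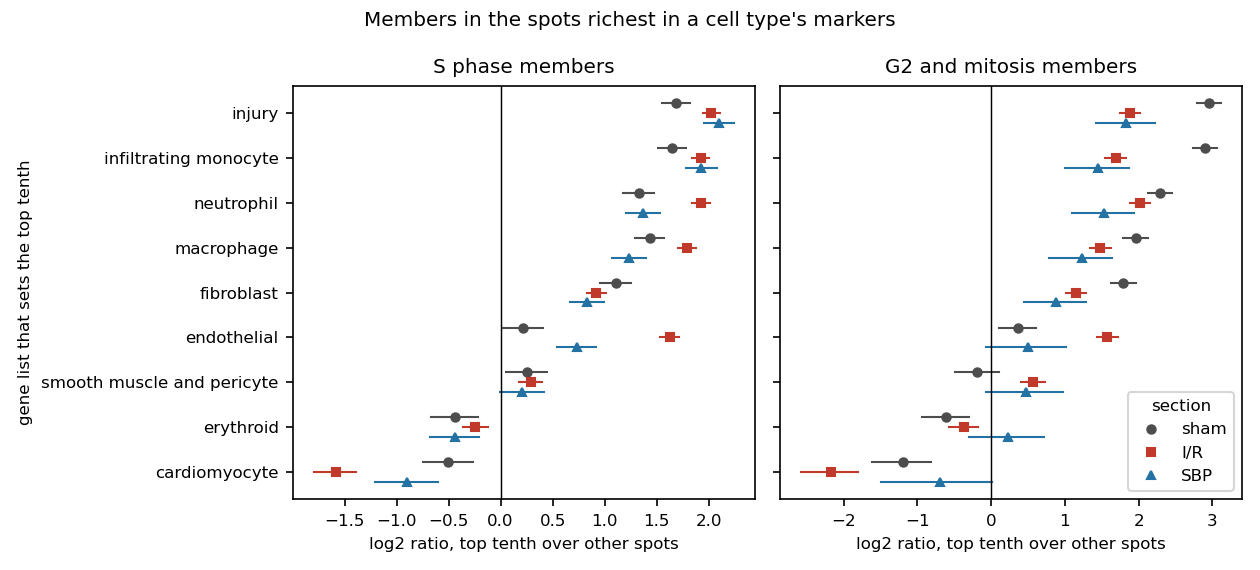
Log2 ratio of the summed S phase members and of the summed G2 and mitosis members between the 10% of spots highest in a marker list and the other spots of the same section, with 95% counting intervals. Mitosis ratios are below 0 for cardiomyocyte markers and above 0 for the monocyte, neutrophil, macrophage and fibroblast lists.

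In thinned spots with a mitosis UMI, the monocyte list stood at 479, 1270.1 and 433 CPM, against 37.3, 359 and 142 in spots without. The cardiomyocyte list stood at 18471, 12096 and 16826 CPM, against 20948, 17788 and 17966. Per 1000 UMIs of the macrophage markers there were 112, 155 and 32.8 mitosis UMIs. Per 1000 of the monocyte markers, most of whose UMIs are of Spp1, there were 391, 148 and 66.0. SBP was lowest per UMI of each of these lists. The part of these cells in the levels of the members was not tested.

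Genes outside the cycle lists with at least 200 UMIs were ranked by their CPM in thinned spots with at least 2 mitosis UMIs over that in spots with none. For I/R (240 against 1328 spots, 4635 genes) Tnc, S100a8, Cxcl5, Sprr1a, Mmp9, Ccl2, Apoc2, Arl4c and Chil3 were among the first 10, with log2 ratios from 2.92 down to 2.68, against a median of 0.68 over the ranked genes. For SBP only 13 spots held 2 mitosis UMIs, and Gda, Chil3, Cxcl5, S100a8, Ccl7, Mpeg1, Npm3, Lst1, Fubp1 and Ddx54 came first on 9 to 34 UMIs each. In sham, which was added after its values were seen, Spp1 came first with 867 CPM against 26.4, a log2 ratio of 5.04 (4.84 to 5.24), followed by Cxcl5, Ccl2, Lgals3 and Ccl7. Cxcl5 was among the first 10 of each section.

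Further genes of the cycle were taken from lists drawn up by function, and counted like the members, with at least 50 UMIs in the pair. Over all genes, 23.2% were past 1.5-fold higher and 3.49% lower in I/R than in sham, 13.8% were lower in SBP than in I/R, and 5.31% were higher and 2.77% lower in SBP than in sham. Of 27 other replication genes, 24 were at least 1.5-fold higher in I/R than in sham and 22 lower in SBP than in I/R. Against sham, SBP was higher for 3 of 24 of them and lower for 1. Of the other mitosis genes, 26 of 32 were higher in I/R than in sham, 26 of 29 lower in SBP than in I/R, and 8 of 17 lower in SBP than in sham with 0 higher. The median log2 ratio of SBP over sham was 0.15 for the replication list and -0.57 for the mitosis list. The mitosis list held 37 genes, and those low in both sections of a pair were left out by the minimum. Its counts in SBP and its median of -0.57 therefore follow in part from the minimum, as with the members.

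Mybl2, which encodes B-MYB, had the highest ratio of I/R over sham of those with at least 50 UMIs in the pair, with 5, 80 and 8 UMIs. Mcm10, a replication initiation factor, held 10, 56 and 7 UMIs, and Uhrf1, which maintains DNA methylation in S phase, was at 2.71, 12.4 and 3.88 CPM. With the same minimum, the lowest ratios of SBP over I/R were those of Pimreg, Ckap2l and Ncapg. They were -4.37 (-7.45 to -2.46), -3.88 (-5.53 to -2.61) and -3.86 (-6.18 to -2.25). SBP held only 2, 5 and 3 UMIs of these genes, and I/R 58, 103 and 61. Against sham the lowest were those of Ckap2l, Cdca3 and Racgap1. They were -2.99 (-4.68 to -1.66), -2.4 (-3.6 to -1.37) and -2.19 (-3.17 to -1.32), from 5, 9 and 13 SBP UMIs. The intervals within each comparison overlap, so no order of these genes is read. Pttg1, which encodes securin, was not past 1.5-fold, at 61.2, 50.8 and 54.2 CPM.

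Of 15 genes of the E2F, RB and DREAM families, 8 were higher in I/R than in sham, where 23.2% of all genes were, 10 were lower in SBP than in I/R, where 13.8% were, and 1 of 10 was lower in SBP than in sham, where 2.77% were. E2f1, an activator of S phase genes, was at 2.99, 8.66 and 3.74 CPM and Foxm1, an activator of mitosis genes, at 0.916, 2.88 and 0.647 (23, 87 and 14 UMIs). Among kinases and their partners 6 of 12 were higher in I/R than in sham, 4 of 12 lower in SBP than in I/R and 1 of 11 lower in SBP than in sham. The last was Cks2, a partner of cyclin-dependent kinases, at 3.86, 11.1 and 1.34 CPM.

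Of the CDK inhibitors, which hold the cycle back, 2 of 6 were higher in I/R than in sham, Cdkn1a and Cdkn2d, where 23.2% of all genes were. Cdkn1a, which encodes p21, was at 9.4 (8.23 to 10.7), 31.4 (29.4 to 33.4) and 17.8 (16.1 to 19.7) CPM, with log2 ratios of 1.74 for I/R over sham and 0.92 when SBP is set against sham. Cdkn1c was at 11.1, 7.57 and 12.1 CPM, Cdkn1b at 18.4, 14.9 and 17.5, Cdkn2c at 6.69, 8.66 and 6.19 and Cdkn2d at 9.28, 14.0 and 13.3. Cdkn3, a phosphatase of the same list, held 29, 26 and 1 UMIs. Cdkn2a held 3, 4 and 0 UMIs and Cdkn2b 8, 17 and 8, too few for a ratio.

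Of 10 genes of the p53 response, 6 were higher and 1 lower in I/R than in sham, where 23.2% and 3.49% of all genes were. In SBP, 4 were lower than in I/R, where 13.8% of all genes were, and 3 were higher than in sham, where 5.31% were. Gadd45b was at 2.75, 7.51 and 6.29 CPM and Plk3 at 1.43, 4.17 and 2.31, both above sham in SBP. Gadd45a, the one lower in I/R, was at 15.5, 9.0 and 10.6 CPM.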

How the data were processed

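Visium data of 1 section per condition were used, and single-nucleus data and spot positions were not used here. The authors deposited raw counts of UMIs per gene and spot, without normalization. The submitters' processing notes name Space Ranger 1.3.0 and mm10, whereas the methods of the study state a human reference and a different version, but the genes listed are those of the mouse. Whether counting used strand is not given in the sources used here. In GENCODE M21, 12 of 40 members overlap a counted gene on the other strand and 0 on the same strand, and pseudogenes of members could share their reads.

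Members, lists and spot groups were chosen with earlier results of these data known. A gene that the injury list and the ranking of genes held is not reported here, and the list was summed without it. Spots below 200 detected genes were removed (3, 1 and 2 in sham, I/R and SBP). UMIs were summed over spots and scaled by the total of the same spots (CPM). Intervals were exact Poisson for sums, Clopper-Pearson for shares and conditional binomial for ratios. With 1 section per condition no p-value was computed. Shares used spots thinned to 6500 UMIs by a hypergeometric draw (seed 1), which dropped 132, 202 and 213 shallower spots. By rule, values in every section are given for the G1 cyclins, Stmn1, Hmgb2, H2afz and the most abundant members of S phase (6) and mitosis (8). Other members named were chosen after their values were seen. The scripts were tested on simulated data. Alternatives covered scaling, spot and UMI filters, thinning, the Ankrd1 threshold and the fold, and, added after seeing the data, sums, counts and Ankrd1 ratios without injury-rich spots and sums without Cenpf. No clustering or doublet caller was run. The software was Python 3.11.15, with the packages scipy 1.17.1, numpy 2.4.6 and pandas 2.3.3, and figures came from matplotlib 3.10.9.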

Additional observations from a re-analysis of the deposited data

Results flagged for a closer look

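The ratio of I/R over sham for the summed G2 and mitosis members had opposite signs in 2 kinds of spots of the same sections, with both counting intervals off 0. It was -0.38 (-0.56 to -0.20) on the log2 scale in Ankrd1-high spots, of which sham had 112 and I/R 479, and 0.83 (0.71 to 0.94) in the other spots. Without the 10% of spots highest in injury genes, which left 55 and 450 Ankrd1-high spots, these ratios were 0.16 (-0.13 to 0.45) and 1.09 (0.94 to 1.24), so that the signs were no longer opposite. This cut took a larger share of the mitosis UMIs of sham than of I/R, which by itself raises both ratios. The difference between these ratios was not tested, since each condition has 1 section.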

How the results depend on the processing

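No paired analysis was possible because the conditions have a single section each and no result comes from a test. A value moved when it left the 95% counting interval of the reported one. For S phase, I/R over sham was 1.18 without mitochondrial UMIs, 1.08 with median-of-ratios size factors and 1.42 without Pcna, and SBP over I/R was -1.08 with size factors and -1.39 without Pcna. For mitosis, I/R over sham was 0.71 without mitochondrial UMIs, 0.61 with size factors, 0.98 when the top 1% of spots by UMIs of the group were dropped, 1.4 without injury-rich spots and 0.97 without Cenpf. SBP over I/R was -2.94 without Cenpf, and SBP over sham -1.28 without injury-rich spots. For G1 cyclins, I/R over sham reversed to -0.017 without mitochondrial UMIs and to -0.12 with size factors, and was 0.53 without Ccnd2. SBP over I/R was -0.041 with size factors and -0.55 without Ccnd2, and SBP over sham -0.16 with size factors. Size factors shifted all genes by -0.22 for I/R over sham, 0.13 for SBP over I/R and -0.082 when SBP is set against sham. The cause of these moves was not tested beyond the construction of each alternative.

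Mitosis UMIs per S phase UMI were 0.811, 0.518 and 0.218 in sham, I/R and SBP without the most abundant member of each group, and 0.496, 0.397 and 0.120 without Cenpf. With members of at least 100 UMIs they were 0.503 for sham and 0.373 for I/R, and without injury-rich spots 0.410 for sham. Shares of spots followed depth. At 3250 UMIs, S phase members were seen in 20.9%, 41.4% and 23.2% of spots and mitosis members in 9.66%, 20.8% and 4.24%, and unthinned in 50.9%, 75.0% and 52.0% and in 25.0%, 45.8% and 12.2%. Another draw at 6500 UMIs gave S phase shares of 35.9% for sham and 36.9% for SBP, the reverse of the order in the first draw, so no order of these sections is read.

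Ratios of Ankrd1-high over other spots stayed above 0 in the alternatives run. With the injury list in place of Ankrd1 they were 2.10, 2.45 and 1.80 for S phase and 3.45, 2.69 and 1.52 for mitosis. For I/R they were 1.0 and 1.29 at the sham 90th percentile, 0.85 and 1.14 with Ankrd1 of thinned spots, and 0.63 and 0.81 without mitochondrial UMIs, and for SBP the S phase ratio was 1.02 at the 90th percentile. Without injury-rich spots the S phase ratio was 1.09 for I/R and 0.94 for SBP, and the mitosis ratio of I/R was 1.36. With the same cut SBP was lower than sham for 6 of 22 members, where 2.38% of all genes were. At 200 UMIs, I/R over sham counted 20 members higher, SBP over I/R 21 lower and SBP over sham 2 lower, which at 20 UMIs became 23. I/R was lower than sham for 0 of 39 members at 2-fold and for 2 of 39 with size factors. The share over all genes was not counted at these minimums, fold or scaling, so these counts have no background. How many members can be counted changes with the minimum, so the counts at 200 and 20 UMIs are not compared. Of 240 values of single members under another scaling, 234 kept their sign. Each scaling moves all ratios of a pair by the same amount, so only ratios near 0 could change sign.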
